A study of Mus musculus with 6 samples.

Results

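The genes described here encode the mitochondrial protein import machinery and the chaperones of the mitochondrial matrix. They were every gene whose symbol on the array starts with Tomm or Timm, together with 15 listed genes (Hspd1, Hspe1, Hspa9, Dnajc19, Grpel1, Grpel2, Pmpca, Pmpcb, Immp1l, Immp2l, Samm50, Mtx1, Mtx2, Chchd4 and Gfer). The rule gave 41 names, and 37 of them had a probe set annotated to that gene alone, out of 18193 genes on the array. Of the 37, 24 were Tomm or Timm genes and 13 were listed genes. Dnajc19, Tomm5 and Tomm6 were represented only by probe sets that carry several symbols (3, 1 and 2 probe sets), and Immp2l had none named for it, so these 4 were not tested. Each gene was represented by its brightest probe set. The mean over all arrays passed the filter on dim signals (an intensity of 163.6) for 35 genes and not for Timm8a2 and Tomm20l, whose values lay between 1.35 and 99.1 and between 89.2 and 195.

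RNA came from mouse brown preadipocytes, immortalised with the SV40 large T antigen and differentiated for 7 days into brown fat cells. The study asked how the coactivators PGC-1alpha and PGC-1beta act together in making mitochondria and in brown fat differentiation. Each of 3 groups had 2 arrays, called biological replicates in the series design: wild-type cells, PGC-1alpha -/- cells with a control siRNA (knockout-control), and PGC-1alpha -/- cells with an siRNA against PGC-1beta (knockdown). Whether replicates were separate cultures is not stated, so the p-values measure the spread between these samples. The knockdown and knockout-control cells are both labelled PGC-1alpha -/-. Wild-type cells have passage number 4 in the labels and no siRNA is named for them. Genotype, siRNA and cell line cannot be told apart in a comparison with wild type.

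Most mitochondrial proteins are made in the cytosol and imported. The translocase of the outer membrane (TOM) is the entry gate. From there, precursors with a presequence pass through the TIM23 channel and are pulled in by the matrix Hsp70 motor, carrier proteins are escorted by small TIM chaperones to the TIM22 complex, barrel proteins are inserted by the sorting and assembly machinery (SAM), and cysteine-rich proteins are trapped by the Mia40 (Chchd4) and Erv1 (Gfer) relay. In the matrix the presequence is cut off by the processing peptidase, and the chaperonin of Hsp60 (Hspd1) and Hsp10 (Hspe1) folds the protein. Brown fat is rich in mitochondria, and its uncoupling protein is itself a carrier that enters through TOM and TIM22.

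Promoter sequences from RefSeq (GRCm38.p6), from 250 bases before to 50 after the annotated start of transcription, were matched to 32 of the 37 genes. No promoter was searched for Tomm40l, Timm21, Tomm7, Hspa9 and Grpel2. Of these windows, 5 are shown from 150 bases before to 30 bases after the start, 5′ to 3′ on the gene's strand, because they belong to the chaperonin and to 4 genes that were lower in knockdown than in wild-type cells. Capitals mark the matches to the motifs searched.
Hspe1: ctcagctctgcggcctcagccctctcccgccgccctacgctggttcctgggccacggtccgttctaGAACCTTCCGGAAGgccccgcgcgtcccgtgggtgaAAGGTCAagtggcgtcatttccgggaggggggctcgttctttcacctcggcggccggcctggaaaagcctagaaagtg
Timm44: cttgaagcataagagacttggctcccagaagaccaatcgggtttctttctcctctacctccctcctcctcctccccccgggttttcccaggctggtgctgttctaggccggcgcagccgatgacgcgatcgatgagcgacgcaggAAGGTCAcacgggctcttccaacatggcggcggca
Timm10: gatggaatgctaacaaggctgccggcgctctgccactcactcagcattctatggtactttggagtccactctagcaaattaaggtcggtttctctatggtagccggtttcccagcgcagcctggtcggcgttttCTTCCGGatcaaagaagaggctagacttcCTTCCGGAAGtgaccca
Grpel1: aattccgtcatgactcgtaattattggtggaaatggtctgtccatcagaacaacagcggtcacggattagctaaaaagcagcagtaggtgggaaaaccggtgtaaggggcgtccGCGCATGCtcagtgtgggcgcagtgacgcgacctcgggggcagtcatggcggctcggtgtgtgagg
Tomm40: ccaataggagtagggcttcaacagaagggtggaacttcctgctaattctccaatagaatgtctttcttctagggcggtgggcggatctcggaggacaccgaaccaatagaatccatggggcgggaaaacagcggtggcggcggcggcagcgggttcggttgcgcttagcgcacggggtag
The windows lie at chr1:55087998-55088177 (plus strand) for Hspe1, chr8:4275876-4276055 (minus strand) for Timm44, chr2:84826871-84827050 (plus strand) for Timm10, chr5:36465035-36465214 (plus strand) for Grpel1 and chr7:19715400-19715579 (minus strand) for Tomm40. Positions below are those of the leftmost base of a match, with 1 at the start of transcription and -1 just before it.

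The motifs were the estrogen-related receptor (ERR) half-site AAGGTCA, the ETS motif CCGGAAG bound by factors such as GABP, the NRF1 motif GCATGCGC, the YY1 motif AAGATGGC and the heat shock element GAANNTTC, where N is any base. Both strands were searched, and the heat shock element reads the same on either strand. The ETS motif was found in 17 of the 32 promoters (53.1%). It was found in 17.5% of the 10971 tested genes whose promoter was searched and in 9.93% of all 27025 genes searched. The ERR half-site was found in 5 members (15.6%), against 4.07% of the tested genes. Hspd1 and Hspe1 both count here, and in the ETS and heat shock shares, through the same matches in a shared stretch. For the other motifs the shares were 2 members (6.25%) against 5.28% for NRF1, 3 (9.38%) against 4.70% for YY1 and 3 (9.38%) against 7.10% for the heat shock element. In all, 22 of the 32 promoters held a match to at least 1 motif, with Hspd1 and Hspe1 both counted. The share of all genes with at least 1 match was not computed, so this count has no comparison. A match describes the letters of the window and not a site in use. Chromosome 18 was left out of the search, and Timm21, Hspa9 and Grpel2 lie on it. Tomm40l and Tomm7 lie on other chromosomes and were not matched to a promoter.

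**Figure D1:**
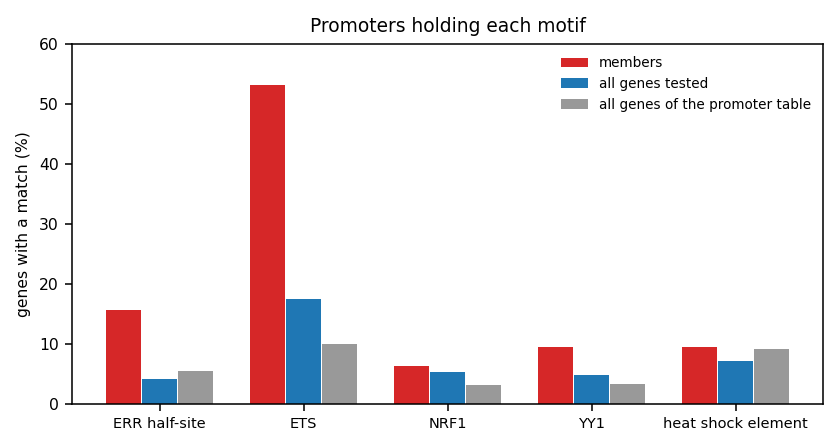
Share of genes (%) whose promoter, from 250 bases before to 50 after the start, holds each motif on either strand. Red bars are the 32 import genes with a promoter, blue bars the 10971 tested genes with a promoter searched and grey bars all 27025 genes searched. The ETS bar of the import genes stands at 53.1%, against 17.5% and 9.93%.

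Hspe1 and Hspd1 lie head to head and their promoters share 285 bases. A second Hspd1 promoter in the sequences held none of the motifs. The shared stretch holds a heat shock element (position -84 from the Hspe1 start), an ETS match on each strand (-80 and -77) that overlaps it and each other, and an ERR half-site (-48). In Timm44 an ERR half-site begins 5 bases before the start of transcription (-5) and runs across it. Timm10 has 3 ETS matches (-16, 14 and 17, the latter pair overlapping). Grpel1 has an NRF1 match (-36) and an ETS match at -204, outside the printed window. Tomm40 matched none of the motifs. The ERR half-site was also found in Timm23, where it overlaps an ETS match, and in Timm8b. A gene is called here when its limma p, adjusted over all genes tested, is under 0.05. Among the members called lower in knockdown than in wild-type cells, 8 had a promoter and 3 of these (Timm10, Grpel1 and Tomm70a) held the ETS motif, against 14 of the 24 others.

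Array medians lay between 220.9 and 242.7 in intensity. Knockdown array 2 had an upper quartile of 503, against 547 to 600 on the other arrays. Of the 34 members measured on both knockdown arrays, 32 were brighter on array 1 than on array 2. Next lowest in upper quartile was knockout-control array 1 (547), and 29 members were brighter on knockout-control array 2 than on array 1. Knockout-control array 1 and knockdown array 2 also had the most empty cells (334 and 360). Cells marked null, likewise read as missing, were more numerous and had another order. They numbered 900 and 841 in wild-type, 1221 and 1073 in knockout-control and 566 and 684 in knockdown cells, on arrays 1 and 2. The targeted Ppargc1b had intensities of 2850 and 3162 in wild-type, 1862 and 2302 in knockout-control and 534 and 224 in knockdown cells. The brightest probe set of Ppargc1a, the gene of PGC-1alpha, read 1338 and 1319, 767 and 830, and 1146 and 648 in the same order and was not called against wild type in either group (limma adjusted p = 0.125 and 0.151). This probe set was not placed relative to the deleted stretch, so it does not check the deletion. The Y-linked Eif2s3y read 872 and 961 in wild type and 6.25 or less or no number elsewhere, and Xist had no number in wild type and 849 to 1648 elsewhere, so the cell lines also differ in sex-linked transcripts. Uncoupling protein 1 (Ucp1), the marker of brown fat, read 4488 and 4761 in wild-type, 4199 and 3725 in knockout-control and 156 and 105 in knockdown cells.

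Most import genes stood lower in knockdown than in wild-type cells, in all functional classes except the relay of Chchd4 and Gfer, and most by less than the test could call. Their median log2 fold change was -0.42 in knockdown against wild type, where all 13644 genes tested had a median of -0.03 and the genes with a mean intensity over 1000 had -0.05. Called lower were 10 of 35 members, against 6.0% of all genes tested and 9.59% of the genes above 1000. Of the members, 29 had a mean intensity over 1000. Called higher was 1 (Gfer), against 4.0% of all genes tested. The fold change was below 0 for 32 of 35 members. For 28 of the 34 members with a value on all arrays, both knockdown arrays lay below both wild-type arrays. This held for 30.4% of all genes and for 1277 of 3576 genes above 1000. The median member stood at -0.27 and -0.59 relative to the wild-type mean on knockdown arrays 1 and 2, on a log2 scale. All genes stood at 0.04 and -0.10 there, and genes above 1000 at 0.08 and -0.19. After quantile normalization the members stood at -0.33 and -0.27. The median of the comparison was -0.59 without knockdown array 1 and -0.27 without knockdown array 2.

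The 10 genes that fell were Tomm40l, Timm10, Tomm40, Samm50, Timm17a, Timm44, Timm21, Timm8a1, Grpel1 and Tomm70a, by 1.55-fold to 2.26-fold. The number called rested on single arrays: 2 members were called without wild-type array 1, 4 without wild-type array 2, 8 without knockdown array 2 and 19 without knockdown array 1, where a lone array is assumed to vary like the other groups. Over all genes the calls moved as well, from 1365 on all arrays to 357, 327, 1572 and 2339 in the same order. Tomm40l was called in each of these fits and in all 15 alternatives, and Timm10 and Tomm40 in 14 of 15, missing without wild-type array 1 (limma adjusted p = 0.0652 and 0.0944).

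**Figure D2:**
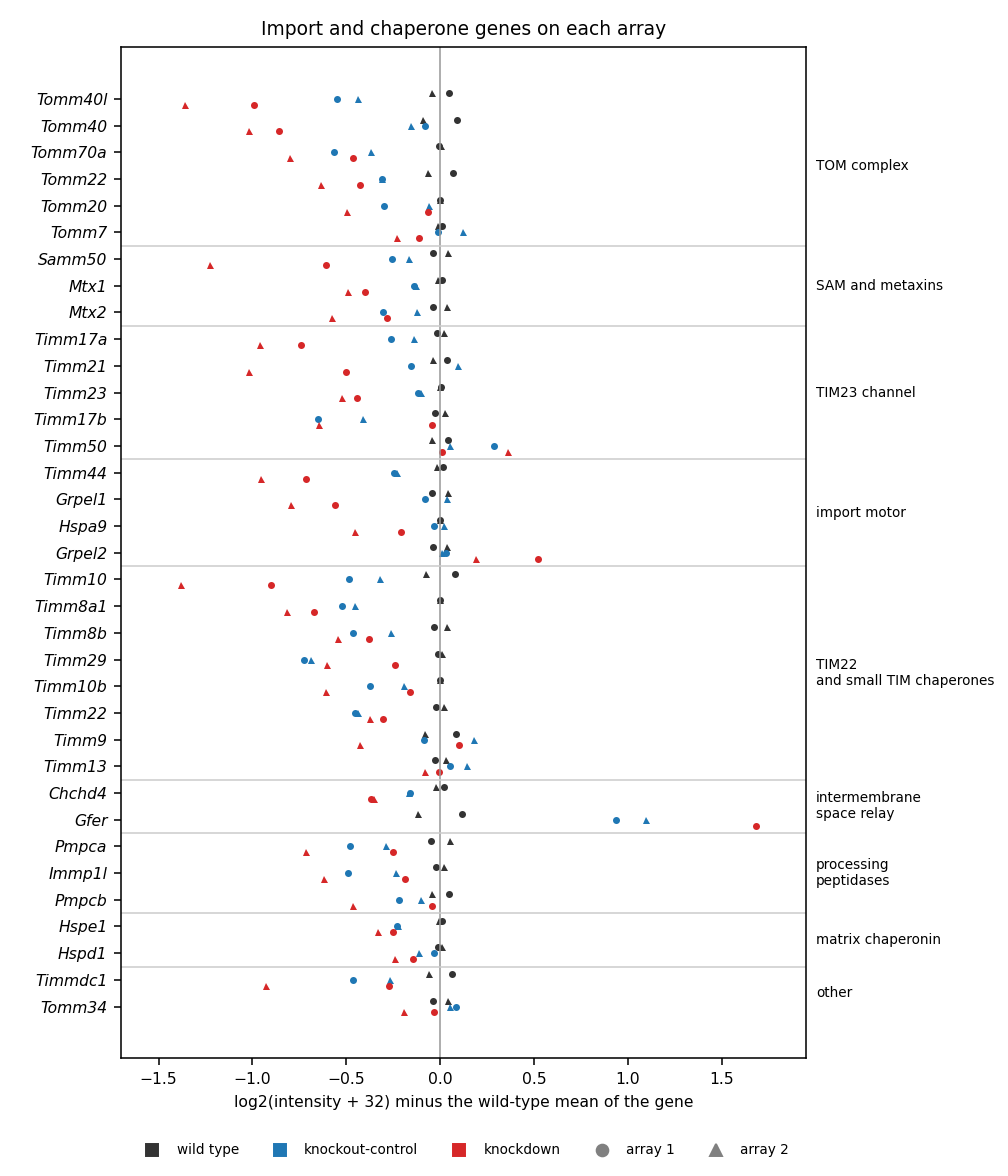
Each of the 35 tested genes on each array, as log2(intensity + 32) minus the gene's wild-type mean, grouped by role and sorted within a role. Circles are array 1 and triangles array 2 of wild type (black), knockout-control (blue) and knockdown (red); most red points lie left of 0, Gfer is the gene far to the right, and its second knockdown value is missing.

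The total difference divides into 2 steps that share the knockout-control arrays. Between wild type and knockout-control 1 member was called lower (Timm29) against 3.5% of all genes tested and 1 higher (Gfer) against 2.55%. The median of the members was -0.20, against 0.00 over all genes and -0.03 over genes above 1000, with 28 of 35 below 0. Both knockout-control arrays lay below both wild-type arrays for 24 of 35 members, against 30.1% of all genes and 1429 of 3742 genes above 1000. Without any 1 wild-type or knockout-control array no member was called in this comparison, and 7 were called without knockdown array 1 and 7 without knockdown array 2, where calls over all genes rose from 826 to 1786.

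Between knockout-control and knockdown, where PGC-1beta was reduced, limma called 0 of 35 members, against 0.564% of all genes called lower and 0.271% called higher. The unadjusted limma p was under 0.05 for 11 of 35 members. This held for 1930 of 13649 genes tested and for 663 of 3747 genes above 1000. The median of the members was -0.20, against -0.01 over all genes and 0.01 over genes above 1000, and 29 of 35 were below 0. Both knockdown arrays lay below both knockout-control arrays for 19 of 34 members, against 21.4% of all genes and 765 of 3576 genes above 1000. Tomm40 came nearest to a call (-0.82 ± 0.15, limma adjusted p = 0.051). Without knockdown array 1 this comparison called 8 members, quantile normalization called 5 and the trend and robust options of eBayes called 3. Calls over all genes rose in these fits too, from 114 to 539, 377 and 325. The median of the members was -0.33 without knockdown array 1 and -0.10 without knockdown array 2.

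**Figure D3:**
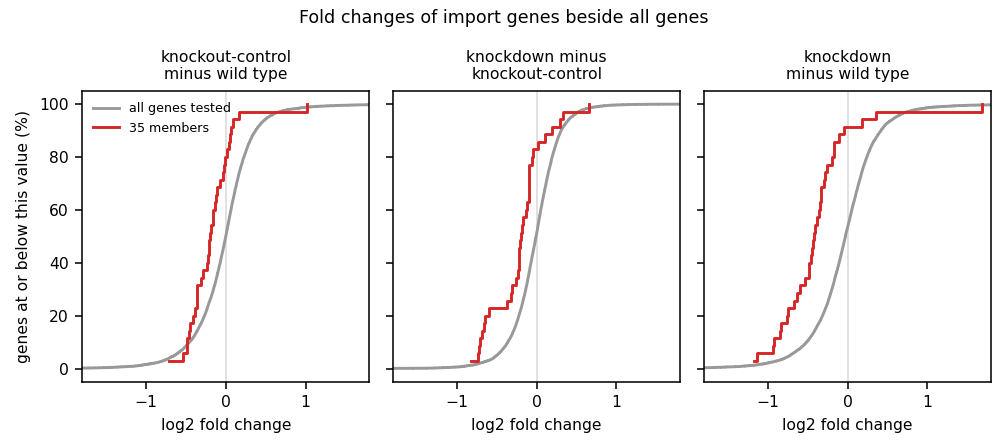
Cumulative share (%) of genes at or below each log2 fold change, for the 35 import genes (red) and all genes tested (grey), in the 3 comparisons. The red curve lies left of the grey one through its middle part, with medians of -0.20, -0.20 and -0.42 against 0.00, -0.01 and -0.03, and its last step on the right is Gfer.

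In the TOM complex 3 of 6 tested members fell in knockdown against wild-type cells and none was called in either step. Tomm40, the pore of the outer membrane, read 1878 and 1657 in wild-type, 1666 and 1582 in knockout-control and 959.9 and 855 in knockdown cells. The knockdown arrays were about level with each other and below all others, and the wild-type and knockout-control arrays overlapped. The log2 fold change was -0.12 ± 0.15 (SE) in the first step, -0.82 ± 0.15 in the second and -0.94 ± 0.15 in all (limma adjusted p = 0.721, 0.051 and 0.0072), a fall of 1.91-fold. Tomm40l, a second form of the pore encoded by its own gene, read 1146 and 1074 in wild-type, 749 and 812 in knockout-control and 543 and 414 in knockdown cells. Its 3 groups did not overlap and stepped down in that order. Tomm40l fell 2.26-fold in all (-1.17 ± 0.16, limma adjusted p = 0.0046), with -0.49 ± 0.16 and -0.68 ± 0.16 in the steps, neither of them called (limma adjusted p = 0.128 and 0.104).

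Tomm70a, the receptor that takes carrier proteins from cytosolic chaperones, read 2257 and 2277 in wild-type, 1524 and 1747 in knockout-control and 1636 and 1288 in knockdown cells. The wild-type arrays were above the other groups, which overlapped. The fall against wild type was 1.55-fold (-0.63 ± 0.16, limma adjusted p = 0.0466), and it was called without knockdown array 1 (adjusted p = 0.0136) but not without any other array (0.0706 to 0.274). Tomm20, the receptor for presequences, read 7777 and 7791 in wild-type, 6314 and 7468 in knockout-control and 7435 and 5517 in knockdown cells. Knockdown array 1 stood among the higher values and knockdown array 2 was the lowest, and the gene was not called in any comparison (-0.28 ± 0.18 against wild type, limma adjusted p = 0.379). The organising receptor Tomm22 and the small subunit Tomm7 had log2 fold changes of -0.53 ± 0.15 and -0.17 ± 0.14 against wild type and were not called (limma adjusted p = 0.0562 and 0.498).

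Of the sorting and assembly machinery, 1 of 3 members fell. Samm50, the barrel protein that inserts other barrel proteins into the outer membrane, read 5046 and 5341 in wild-type, 4344 and 4623 in knockout-control and 3391 and 2202 in knockdown cells. Both knockdown arrays were the lowest, with a wide gap between them, and the wild-type arrays were the highest. Samm50 fell 1.89-fold against wild type (-0.92 ± 0.20, limma adjusted p = 0.0272), with -0.21 ± 0.20 and -0.71 ± 0.20 in the 2 steps. Leaving out wild-type array 1 or 2 ended the call (limma adjusted p = 0.116 and 0.158). Mtx1, which encodes metaxin, a partner of Samm50 on the outer membrane, read 2671 and 2629 in wild-type, 2406 and 2418 in knockout-control and 1996 and 1878 in knockdown cells. Its 3 groups were in the same order without overlap, and it was not called (-0.45 ± 0.14, limma adjusted p = 0.0765). A second and dimmer probe set of Mtx1 was called lower in the same comparison (-0.74 ± 0.17, limma adjusted p = 0.0309 over all probe sets). Mtx2 had -0.43 ± 0.16 against wild type (limma adjusted p = 0.13).

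In the TIM23 channel of the inner membrane 2 of 5 tested members fell against wild type. Timm17a, a core subunit of the channel, read 4453 and 4567 in wild-type, 3758 and 4088 in knockout-control and 2685 and 2306 in knockdown cells. The 3 groups did not overlap, and the larger gap lay between knockout-control and knockdown (-0.65 ± 0.15, limma adjusted p = 0.0876). The fall against wild type was 1.8-fold (-0.85 ± 0.15, limma adjusted p = 0.0108), and it was lost without wild-type array 1 or 2 (0.0939 and 0.11). Timm21, which links the channel to TOM and to the respiratory chain, read 1789 and 1701 in wild-type, 1560.4 and 1864 in knockout-control and 1224 and 845 in knockdown cells. The knockdown arrays were the lowest, and the other groups overlapped. It fell 1.69-fold against wild type (-0.76 ± 0.19, limma adjusted p = 0.0446) and was called only without knockdown array 1 when arrays were left out in turn (0.00723, against 0.0658 to 0.232 without each of the others).

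The pore subunit Timm23 read 5110.0 and 5096 in wild-type, 4701 and 4750.5 in knockout-control and 3742 and 3544 in knockdown cells. Its values hardly varied within a group and the 3 groups did not overlap, with a log2 fold change of -0.48 ± 0.14 against wild type that was not called (limma adjusted p = 0.0586). Timm17b, the X-linked second form of Timm17a, read 1783 and 1852 in wild-type, 1144 and 1359.9 in knockout-control and 1763 and 1150.0 in knockdown cells. The knockdown arrays spanned most of the range, from near wild type to the level of the lowest knockout-control array, and no comparison was called (-0.53 ± 0.21, 0.19 ± 0.21 and -0.34 ± 0.21; limma adjusted p = 0.188, 0.75 and 0.347). Timm50, the receptor that hands presequences to the channel, read 1210.2 and 1139.7 in wild-type, 1439 and 1217 in knockout-control and 1180.4 and 1520.1 in knockdown cells. Knockdown array 1 lay within the wild-type range, knockdown array 2 was the highest of all, and the knockout-control arrays were above wild type. The difference was not called (0.19 ± 0.17, limma adjusted p = 0.55).

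Of the import motor, which pulls precursors into the matrix, 2 of 4 tested members fell. Timm44, which tethers the motor to the channel, read 3148 and 3084 in wild-type, 2622 and 2653 in knockout-control and 1889 and 1595 in knockdown cells. The 3 groups did not overlap, with arrays of wild type and of knockout-control close to each other within the group. Timm44 fell 1.78-fold against wild type (-0.83 ± 0.15, limma adjusted p = 0.0114), with -0.24 ± 0.15 and -0.59 ± 0.15 in the steps (limma adjusted p = 0.407 and 0.108). Grpel1, the nucleotide exchange factor that resets the motor, read 4446 and 4710.2 in wild-type, 4325 and 4691 in knockout-control and 3089 and 2629 in knockdown cells. Wild-type and knockout-control arrays overlapped almost fully, and the knockdown arrays were below them. Its fall against wild type was 1.6-fold (-0.68 ± 0.15, limma adjusted p = 0.0268), nearly all of it in the second step (-0.65 ± 0.15, limma adjusted p = 0.088). Without wild-type array 1 or 2 neither gene was called (0.112 and 0.102 for Timm44, 0.165 and 0.235 for Grpel1), and Grpel1 was not called without knockdown array 2 (0.0506).

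Hspa9 (mortalin), the Hsp70 that drives the motor, read 8978 and 8973 in wild-type, 8776 and 9105 in knockout-control and 7759 and 6535 in knockdown cells. Both knockdown arrays were below the 4 others, and the gene was not called (-0.33 ± 0.15 against wild type, limma adjusted p = 0.2). Grpel2, the second exchange factor, read 620.1 and 654 in wild-type, 652 and 640.2 in knockout-control and 926 and 732 in knockdown cells. Its knockdown arrays were the highest, opposite to Grpel1, and it was not called either (0.36 ± 0.16, limma adjusted p = 0.198). The difference between Grpel1 and Grpel2, like that between the other pairs of related genes, was not itself tested.

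**Figure D4:**
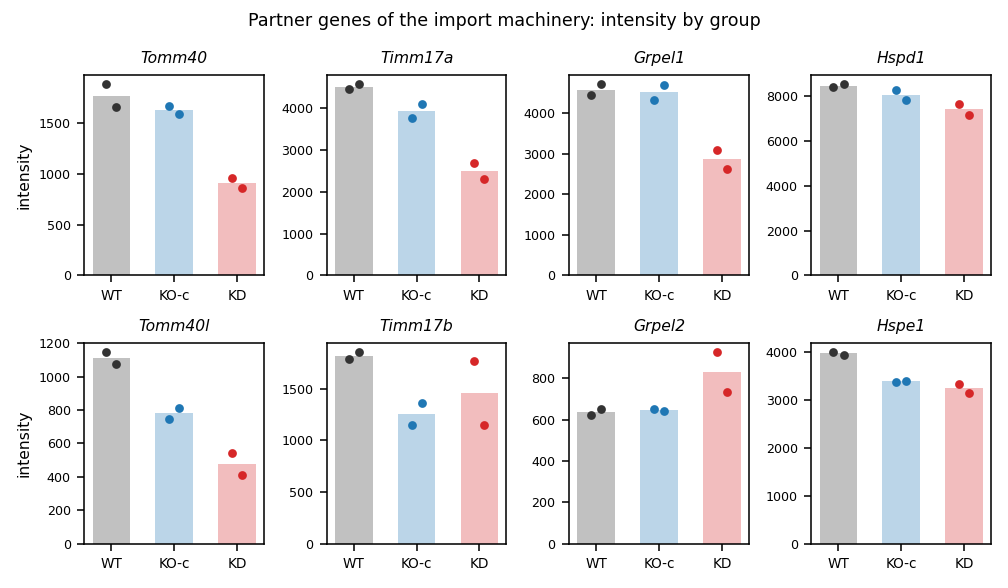
Intensity (linear scale from 0, set for each panel) of 4 pairs of related genes in wild type (WT), knockout-control (KO-c) and knockdown (KD), with points for the 2 arrays and bars for their mean. Tomm40, Tomm40l, Timm17a and Grpel1 are lowest in knockdown, the knockdown arrays of Timm17b lie far apart, Grpel2 is highest in knockdown, and Hspd1 and Hspe1 were not called.

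Among the 8 tested genes of the TIM22 route, 2 fell in knockdown against wild-type cells and 1 in knockout-control against wild type. Timm10, a small chaperone that carries hydrophobic precursors across the intermembrane space, read 2831 and 2538 in wild-type, 1905 and 2137 in knockout-control and 1421 and 1009 in knockdown cells. The 3 groups did not overlap and stepped down in that order. The fall was 2.21-fold against wild type (-1.14 ± 0.19, limma adjusted p = 0.0085; 0.0652 without wild-type array 1), with -0.40 ± 0.19 and -0.74 ± 0.19 in the steps (limma adjusted p = 0.259 and 0.118). Timm8a1, the X-linked chaperone whose human counterpart is mutated in a deafness and dystonia syndrome, read 2649 and 2651 in wild-type, 1834 and 1923 in knockout-control and 1648 and 1493 in knockdown cells. The wild-type arrays stood well above the rest and the 3 groups did not overlap. Timm8a1 fell 1.68-fold against wild type (-0.74 ± 0.14, limma adjusted p = 0.0141), a call lost without wild-type array 1 or 2 (0.14 and 0.145), and X-linked genes are measured here in cell lines that differ in Xist.

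Timm29, a subunit of TIM22, read 1016 and 1033 in wild-type, 606 and 624 in knockout-control and 863 and 663 in knockdown cells. It was lowest in knockout-control, with both knockdown arrays between that group and wild type. The fall of 1.63-fold in knockout-control (-0.71 ± 0.16, limma adjusted p = 0.0398) was lost without any 1 of the 4 arrays compared (0.136 to 0.273). A second probe set of Timm29 had -0.24 ± 0.20 in the same comparison and was not called (limma adjusted p = 0.556 over all probe sets), and knockdown against wild type gave -0.42 ± 0.16 (limma adjusted p = 0.143). The other 5 genes, the channel Timm22 and the chaperones Timm8b, Timm9, Timm10b and Timm13, were not called in any comparison. Their log2 fold changes against wild type ran from -0.46 ± 0.15 for Timm8b to -0.04 ± 0.14 for Timm13 in knockdown cells. Timm9, the partner of Timm10 in the chaperone ring, had -0.16 ± 0.20 (limma adjusted p = 0.658).

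Gfer, the sulfhydryl oxidase of the relay, was the 1 member called higher. Its brightest probe set read 689 and 582 in wild-type and 1241 and 1392 in knockout-control cells and 2098 on knockdown array 1, with an empty cell for knockdown array 2. The values rose from group to group without overlap. The log2 fold changes were 1.02 ± 0.16 in knockout-control and 1.68 ± 0.20 in knockdown against wild type (limma adjusted p = 0.0127 and 0.0033), the latter from 1 knockdown array. The second probe set of Gfer read 268 and 302, 157 and 189, and 334 and 181 in the same order of groups. Its direction was opposite against wild type, at -0.63 in knockout-control and -0.18 in knockdown, and the mean of both probe sets gave -0.08 for knockdown against wild type, so the rise belongs to 1 of the 2 probe sets. The rise in knockout-control was also lost without any 1 of the 4 arrays compared (limma adjusted p = 0.052 to 0.127).

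Chchd4, the oxidoreductase that works with Gfer, read 1491 and 1448 in wild-type, 1313 and 1306 in knockout-control and 1131 and 1145 in knockdown cells. The 3 groups stepped down without overlap and the gene was not called (-0.36 ± 0.13, limma adjusted p = 0.135).

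None of the 3 tested processing peptidases was called in any comparison, at log2 fold changes of -0.48 ± 0.18 for Pmpca, -0.40 ± 0.18 for Immp1l and -0.26 ± 0.17 for Pmpcb in knockdown against wild type. Pmpca, the subunit of the matrix processing peptidase that binds the presequence, read 1662 and 1788 in wild-type, 1227 and 1408 in knockout-control and 1441 and 1039 in knockdown cells. The wild-type arrays were the highest, and the other groups overlapped. Pmpcb, the catalytic subunit, read 3447 and 3232 in wild-type, 2861 and 3111 in knockout-control and 3235 and 2407 in knockdown cells. Knockdown array 1 lay within the wild-type range and knockdown array 2 was the lowest. Immp1l, a subunit of the inner membrane peptidase, read 2472 and 2548 in wild-type, 1779 and 2126 in knockout-control and 2199 and 1623 in knockdown cells. Here too the wild-type arrays were above the others, which overlapped.

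Neither gene of the chaperonin was called in any comparison. Hspd1, the ring subunit Hsp60, read 8382 and 8506 in wild-type, 8246 and 7806 in knockout-control and 7630.1 and 7148 in knockdown cells. The highest and lowest of these values differ by less than the fall of any called gene, and the groups did not overlap. Its log2 fold changes were -0.07 ± 0.14, -0.12 ± 0.14 and -0.19 ± 0.14 (limma adjusted p = 0.826, 0.761 and 0.429). Hspe1, the lid Hsp10, read 3989 and 3943 in wild-type, 3378 and 3385 in knockout-control and 3332 and 3147 in knockdown cells. The wild-type arrays were above the rest, and the other groups were close to each other without overlap. Hspe1 had -0.29 ± 0.14 against wild type (limma adjusted p = 0.222) and was not called.

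The remaining members work beside the translocases. Timmdc1, an assembly factor of complex I that shares the TIM17 fold, read 685 and 626 in wild-type, 467 and 539 in knockout-control and 537 and 329 in knockdown cells. Knockdown array 2 was far below knockdown array 1, which lay within the knockout-control range, and the change was not called (-0.60 ± 0.22, limma adjusted p = 0.124). Tomm34, a cytosolic co-chaperone of precursors, read 901 and 955 in wild-type, 986 and 961 in knockout-control and 907 and 807 in knockdown cells. All its groups were close, at -0.11 ± 0.14 (limma adjusted p = 0.665).

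Single genes depended on the probe set in part. Of the 37 members 16 had 1 probe set and 21 had several, 75 probe sets in all. Among the 19 tested genes with several probe sets above the filter, all probe sets had the same sign for 14 in knockout-control against wild type, 16 in knockdown against knockout-control and 16 in knockdown against wild type. Timm44 (3 probe sets), Samm50 (2) and Timm8a1 (2) fell in knockdown against wild type with each of their probe sets above the filter, at -0.95 to -0.83, -0.92 to -0.86 and -0.74 to -0.64, when every probe set was tested as its own feature.

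For Tomm20 the dimmest of 6 probe sets read 564 and 585 in wild-type, 205 and 246 in knockout-control and 222 and 186 in knockdown cells. It fell against wild type in both groups, by -1.24 and -1.37 (limma adjusted p = 0.00311 and 0.00181 over all probe sets), while the 5 others lay between -0.56 and -0.27 in knockdown and were not called. For Tomm70a another probe set fell by -0.97 and -1.34 in the same comparisons (limma adjusted p = 0.0231 and 0.00468), more than the brightest. The second and dimmer probe set of Tomm40l had 0.27 in knockout-control, -0.72 in the second step and -0.46 in knockdown against wild type, none of them called. The other probe sets of Timm50 were below 0 in all comparisons (-0.55 and -0.17 in knockdown against wild type), where the brightest was above 0.

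**Figure D5:**
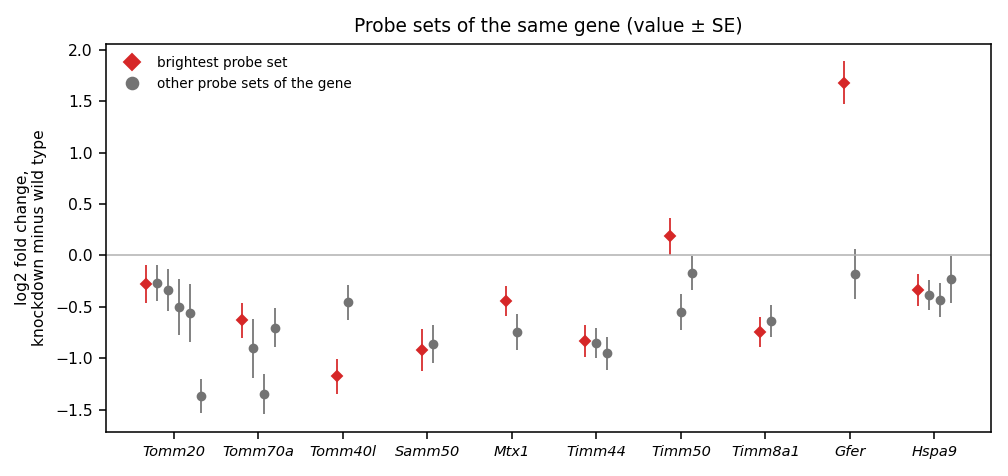
Log2 fold change in knockdown against wild type, with its standard error, for each probe set above the filter of 10 members. Red diamonds are the brightest probe sets and grey circles the others; those of Samm50, Timm44 and Timm8a1 lie close together, and those of Tomm20, Timm50 and Gfer lie apart.

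Genes that work next to the import machinery were listed for comparison, 45 in all, of which 42 were tested. The list took proteases and processing enzymes, matrix co-chaperones, insertion and cristae proteins, cytosolic delivery chaperones and stress regulators. In knockdown against wild type 7 of 42 fell and 1 rose, against 6.0% and 4.0% of all genes tested, with a median of -0.22. In knockout-control against wild type 1 fell (Trap1), against 3.5% of all genes, and in knockdown against knockout-control 1 fell (Apoo), against 0.564%, with medians of -0.10 and -0.07.

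Apoo, a subunit of the cristae complex MICOS, read 4376 and 4316 in wild-type, 3018 and 3391 in knockout-control and 1682 and 1332 in knockdown cells. The groups did not overlap, and Apoo fell in the second step (-1.08 ± 0.16, limma adjusted p = 0.0339) and against wild type (-1.52 ± 0.16, limma adjusted p = 0.0013). The rhomboid protease gene Parl fell against wild type by -1.39 ± 0.25 and the matrix protease subunit gene Afg3l2 by -1.31 ± 0.22 (limma adjusted p = 0.0124 and 0.0094). Another MICOS subunit, Micos10, fell by -1.02 ± 0.16 (limma adjusted p = 0.0069). Trap1, the matrix Hsp90, read 4434 and 5047 in wild-type, 2515 and 2863 in knockout-control and 2831 and 2284 in knockdown cells. Its wild-type arrays stood above the rest, and it fell in knockout-control (-0.81 ± 0.17, limma adjusted p = 0.0272), with the knockdown arrays at a similar level. Of the delivery chaperones and the stress regulators, none was called, the latter including Atf4 (0.06 ± 0.21), Atf5 (0.35 ± 0.17) and Ddit3 (0.74 ± 0.20, limma adjusted p = 0.0559) in knockdown against wild type.

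Some markers of cell state moved with the knockdown. Of 7 adipocyte markers listed, Plin1 was not tested. Intensities of the 6 others (Ucp1, Cidea, Dio2, Adipoq, Fabp4 and Pparg) were summed. Their sums were 43669 to 43840 in wild type, 40895 to 43285 in knockout-control and 30226 to 32667 in knockdown. Ucp1, Cidea and Dio2 fell in knockdown (limma adjusted p = 0.0016 and 0.0002 for the latter pair against wild type). Adipoq (-0.32), Fabp4 (-0.11) and Pparg (0.15) were not called against wild type (limma adjusted p = 0.189, 0.662 and 0.574). Sums of preadipocyte and fibroblast markers were 873 to 972, 934 to 1169 and 2165 to 2349 in the same order of groups. Dlk1 and Pdgfra rose against wild type (limma adjusted p = 0.0009 and 0.0111), while Thy1 was not called and Cd34 was below the filter. Ly6a, also listed, was not tested. Sums for macrophage (2564 to 3353 over all arrays), endothelial (615 to 714) and skeletal muscle markers (1008 to 1426) overlapped between knockdown and at least 1 other group, and none of their tested markers was called in knockdown. In RNA from whole cultures, fewer cells of a type and less RNA per cell cannot be told apart, and the part of cell state in the fall of the import genes was not tested.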

How the data were processed

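Biotin-labelled total RNA of 6 samples was measured on one-colour oligonucleotide arrays, per the labels. The deposited table holds linear intensities of 45037 probe sets on each array. How the authors summarised, background-corrected and scaled them is not given in the sources used here. Array medians lay between 220.9 and 242.7, so no further scaling was applied. Missing cells were kept as missing, and the number of arrays limits the precision.

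Names came from the platform annotation and a GRCm38 gene table: 34945 had 1 symbol (34741 matched the table), 932 several and 9160 none. Genes whose brightest probe set lay under the 40th percentile of the mean log2 value (7.61) were left out, leaving 13658. Intensities were tested as log2(intensity + 32), which understates changes of dim genes. The model was limma's (version 3.58.1, under R 4.3.3), with a mean for each group over all 6 arrays and eBayes on 3 residual and 5.45 prior degrees of freedom. P-values were adjusted by Benjamini-Hochberg over all genes in a comparison, and 0.05 was the threshold. The test was checked on simulated data in which genes varied independently on an array. That check does not cover deviations shared by many genes of an array. Fold changes are given with standard errors.

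The members, gene lists and tests were chosen with earlier results of these data known. Values on all arrays are given for called members, for the 2 members of each functional class with the largest change, and for a set of core subunits; called related genes are named up to 4 per comparison. Groups came from sample titles. Promoters were searched as exact matches in RefSeq sequence. The alternatives changed the pseudocount, normalization, filter, probe-set rule, eBayes options, samples fitted and replicate block, and left out each array. Exact permutation of 2 against 2 arrays cannot reach the threshold and was not used.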

Additional observations from a re-analysis of the deposited data

How the results depend on the processing

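With 2 arrays per group, counts of called members were the least stable values, while their median log2 fold changes stayed below 0 in all 3 comparisons under each of the 15 alternatives run. The median for knockdown minus wild type ranged from -0.59 to -0.27 when a knockdown array was left out, and that for knockdown minus knockout-control from -0.33 to -0.10. Calls over all genes moved too. In knockdown minus wild type, 1365 became 585 (no filter), 778 (mean of probe sets) and 735 (replicate block). In knockdown minus knockout-control, 114 became 216 (pseudocount 100), 377 (quantile normalization), 199 (60th percentile) and 325 (trend and robust). In knockout-control minus wild type, 826 became 1647 (quantile normalization), 364 (no filter), 474 (mean of probe sets), 1786 (only the 2 groups) and 410 (replicate block). For knockdown minus wild type the count of 11 called members became 7 with no filter, 7 with the mean of probe sets and 7 with the replicate block, and it ranged from 2 to 19 with each array left out. For knockdown minus knockout-control the count of 0 became 1 with a pseudocount of 100, 5 with quantile normalization, 1 when the filter was raised to the 60th percentile and 3 with the trend and robust options, and it ranged from 0 to 8 with each array left out. For knockout-control minus wild type the count of 2 became 4 with quantile normalization, 0 with no filter, 0 with the mean of probe sets, 7 with only the 2 groups compared and 0 with the replicate block, and it ranged from 0 to 7 with each array left out.

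For related genes, the count of 8 in knockdown minus wild type became 3 with no filter and 5 with the mean of probe sets, and ranged from 2 to 13 with each array left out. In knockdown minus knockout-control the count of 1 became 3 with a pseudocount of 100, 5 with quantile normalization, 0 with no filter, 3 at the 60th percentile, 0 with the mean of probe sets, 6 with the trend and robust options, 0 with only the 2 groups and 0 with the replicate block, and ranged from 0 to 9. In knockout-control minus wild type the count of 1 became 2 with a pseudocount of 100, 4 with quantile normalization, 0 with no filter, 2 at the 60th percentile, 0 with the mean of probe sets, 2 with the trend and robust options, 3 with only the 2 groups and 0 with the replicate block, and ranged from 0 to 3. Gfer in knockdown minus wild type turned to -0.0795 with the mean of probe sets. The cause of the changes between settings, those of the filter included, was not tested. Replicate numbers did not pair the samples in the same way across groups. Deviations of same-numbered arrays were compared across 13344 genes. They correlated with r = 0.20 between wild type and knockout-control, -0.15 between wild type and knockdown and -0.50 between knockout-control and knockdown. The last value means that knockout-control array 1 tended to deviate like knockdown array 2. The replicate block pairs same-numbered arrays and does not take up this pattern, whose source was not tested. Testing every probe set as its own feature was added after seeing the data.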
